A study of Homo sapiens with 4 samples.

Results

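The mitochondrial respiratory chain and ATP synthase are built from nuclear-encoded subunits whose genes carry the symbols NDUF, SDH, UQCR, COX and ATP5. The gene set took every row whose symbol starts with NDUFA, NDUFB, NDUFC, NDUFS, NDUFV, UQCR, COX4, COX5, COX6, COX7, COX8 or ATP5, or is SDHA, SDHB, SDHC or SDHD. Of 26255 gene rows, 102 met these names. The 2 pseudogenes, 9 assembly factors and 5 symbols with a hyphen among them were left out, which left 86 members. Core subunits made up 75 of them, with 37 in complex I, 4 in complex II, 8 in complex III, 11 in complex IV and 15 in complex V. A further 10 were tissue-restricted isoforms or paralogues, and ATP5S (now DMAC2L), named as a coupling factor of ATP synthase, was counted apart. NDUFA4 was placed in complex IV, where its protein is found. The subunits encoded by mitochondrial DNA were not analysed here.

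Expression was measured by RNA-seq (TruSeq kit) in A549, a long-established line of human lung adenocarcinoma cells, in 4 libraries, 1 per group. The acinar tumor and solid tumor libraries held tumor cells cut by laser microdissection from A549 xenografts in immunodeficient mice, where acinar growth forms gland-like structures and solid growth forms sheets. The mix culture and single culture libraries held GFP-labelled A549 cells sorted from 3D colonies. Mix culture is read here as colonies grown with cancer-associated fibroblasts (CAFs) and single culture as colonies grown without them, since presence or absence of CAFs is the sole culture variable named. The sources used here do not give whether acinar and solid cells shared a tumor or a mouse, nor where the CAFs came from. All groups are 1 cell line, and the tumors differ from the cultures both in where the cells grew and in how they were collected, which cannot be told apart. Groups have no replicates, so differences can be set against counting error but not against replicate spread, and p-values were not computed.

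Electrons from NADH enter the chain at complex I and those from succinate at complex II, pass through ubiquinone to complex III, and travel on cytochrome c to complex IV, which reduces oxygen to water. Complexes I, III and IV pump protons across the inner membrane, and complex V uses the returning protons to make ATP. Complex II is also the succinate dehydrogenase of the citric acid cycle. Lung adenocarcinoma cells in culture commonly run glycolysis and respiration side by side, and hypoxia-inducible factor (HIF) is known to lower respiration through several of its targets.

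Estimated depth, in units of 1000000 fragments, was 6.63 in the acinar tumor, 7.27 in the solid tumor, 12.18 in the mix culture and 10.97 in the single culture. Values are given as scaled counts, the deposited normalised fragment counts divided by one constant, so a gene can be compared between libraries but not with another gene. A count of 3 fragments, the upper limit that a listed 0 allows, corresponded to 0.465, 0.420, 0.242 and 0.267 scaled counts in the acinar tumor, solid tumor, mix culture and single culture. All 11 epithelial and NRF2-driven genes listed as A549 markers were measured in each library, with KRT8 between 2451 and 4507 scaled counts, although EPCAM was at 2.09 in the mix culture and 2.31 in the single culture. CDKN2A and CDKN2B, deleted in A549, were listed at 0 apart from 0.140 for CDKN2A in the solid tumor, and MTAP of the same deletion was between 5.59 and 7.25. Fibroblast markers summed to 754 in the acinar tumor, 309.5 in the solid tumor, 333 in the mix culture and 221 in the single culture. Most of these sums came from MFAP5 in the tumors and COL5A1 in the cultures, while the defining markers COL1A2 and DCN did not exceed 0.280 and POSTN was listed at 0. Other defining markers were detected, with COL1A1 at 30.7, 32.3, 29.5 and 19.3 in the same order of libraries, and LUM at 55.4 in the acinar tumor, 19.6 in the solid tumor, 0.0805 in the mix culture and 0 in the single culture. Summed leukocyte markers, mostly CD68, were 146, 239, 44.1 and 50.2 in the same order of libraries, and PTPRC did not exceed 1.40. Endothelial markers summed to 14.6 in the acinar tumor, of which PLVAP gave 13.02, and to at most 1.68 elsewhere; erythroid markers summed to at most 0.420. Muscle and fat markers, mostly TNNT1, summed to 9.92, 29.1, 61.9 and 58.1. The part of other cells in the results below was not tested, and host cells are mouse, which human symbols cannot show.

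All 75 core subunits were measured in every library, and together they took a like share of the fragments in each pair. Their share of the library total was 1.11% in the acinar tumor, 1.16% in the solid tumor, 1.01% in the mix culture and 1.02% in the single culture. Complex I subunits summed to 3818 scaled counts in the acinar tumor, 3744 in the solid tumor, 3055 in the mix culture and 3015 in the single culture. Complex III subunits summed to 1357, 1383, 1169 and 1213 in the same order. The summed RNA of the counted complex I and III subunits was thus modestly higher in the tumors, and that of complex IV more so. CYC1, the heme subunit of complex III, falls outside the naming rule and is not in the complex III sum. It was lower in the tumors, at 171 in the acinar tumor, 194 in the solid tumor, 312 in the mix culture and 273 in the single culture. Adding CYC1 to the complex III sum would take away most of its tumor excess. The parts of complexes I and III also differed, as given below. Complex IV subunits summed to 3195.5 in the acinar tumor, 3164 in the solid tumor, 1868 in the mix culture and 1878 in the single culture. The succinate dehydrogenase subunits of complex II ran the other way, at 226 in the acinar tumor and 243 in the solid tumor, against 361 in the mix culture and 365 in the single culture. Complex V subunits summed to 2790 in the acinar tumor, 3204 in the solid tumor, 3458 in the mix culture and 3462 in the single culture. A sum without ATP5B was an alternative added after the data were seen. The other 14 subunits came to 2257, 2449.7, 2225 and 2162 in the same order of libraries. The acinar tumor was thus not the lowest in summed scaled counts without ATP5B. As a share of the library total it was still the lowest, because the library totals differed. In bulk libraries, fewer cells of a type and less RNA per cell cannot be told apart.

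**Figure D1:**
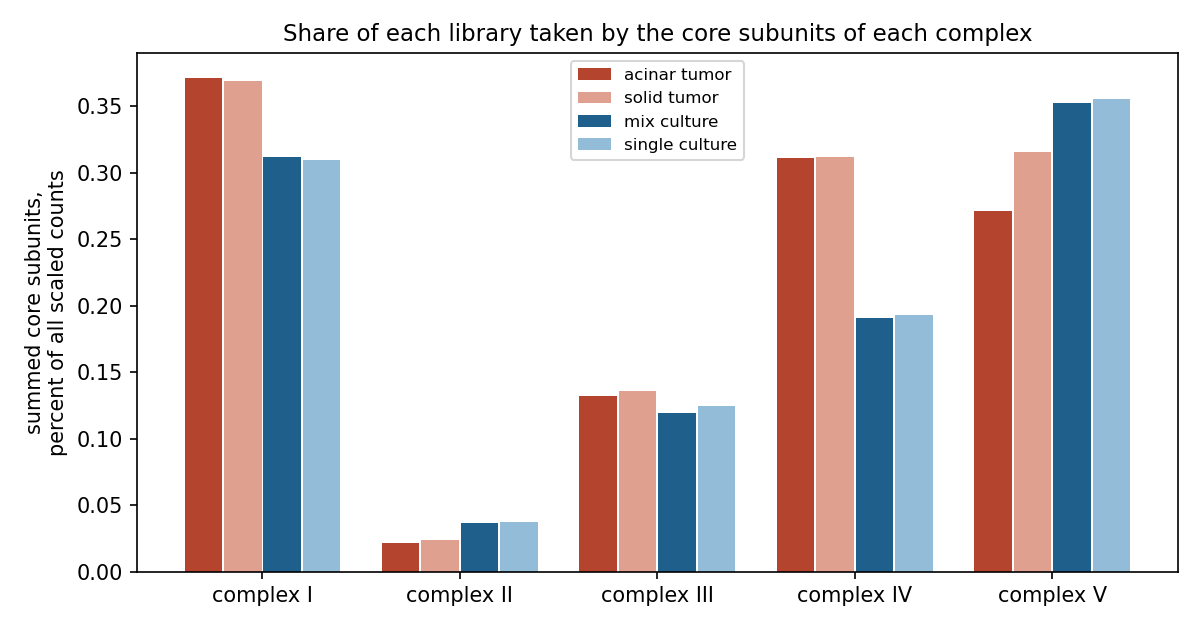
Summed core subunits of each complex as a percent of all scaled counts of the library (y axis, linear from 0), 1 bar per library in the 4 libraries. Complex IV stood at 0.311% in both tumors, and at 0.190% and 0.193% in the mix and single cultures. Complex V was at 0.271% in the acinar tumor, the lowest of the 4, against 0.315% in the solid tumor. Without ATP5B the acinar tumor was still the lowest as a percent of the library, though not in summed scaled counts.

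The first comparison asks how the acinar tumor cells, grown as glands, differed from solid ones in the same kind of host. Across all genes measured in this pair, 6.34% were at or past 1.5-fold higher and 8.07% at or past 1.5-fold lower in the acinar tumor, on the log2(value + 1) scale. Of the 80 members measured, 1 was past 1.5-fold higher (COX6B2) and 1 lower (NDUFA4L2), and both are low-count isoforms. Past 2-fold, the shares over all genes were 1.98% higher and 2.55% lower, and the members counted 0 higher and 1 lower. None of the 75 core subunits passed 1.5-fold in either direction. Core subunits are well-counted genes, for which such ratios are less common: among all genes averaging 25 scaled counts or more in the pair, a level chosen after the data were seen, 4.06% were past 1.5-fold higher and 2.87% lower. The median log2 ratio of the core subunits was -0.03, with a range from -0.50 to 0.44, against a median of 0.01 over all genes; 34 were above 0 and 41 below, and 50.8% of all genes were above 0. For 70 core subunits a counting interval could be given, and 40 of these intervals included a ratio of 1, while 20 lay below 1 and 10 above it.

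Within complex I the ratios scattered on both sides of 1, with a median log2 ratio of -0.03. The highest was NDUFA12, an accessory subunit needed for late assembly, at 90.4 scaled counts in the acinar tumor, 66.3 in the solid tumor, 61.9 in the mix culture and 51.8 in the single culture. Its acinar over solid ratio was 1.36 (95% counting interval 1.21 to 1.54). NDUFS6, which binds zinc in the peripheral arm, had 76.9 in the acinar tumor, 61.5 in the solid tumor, 71.2 in the mix culture and 58.1 in the single culture, a tumor ratio of 1.25 (1.10 to 1.42). NDUFB6, a membrane-arm subunit, had 88.5 and 71.5 in the acinar and solid tumors and 101.5 and 89.9 in the mix and single cultures, a tumor ratio of 1.24 (1.10 to 1.40). All 3 were thus higher in the acinar than in the solid tumor by more than counting error. The lowest complex I members were NDUFV3, NDUFS1 and NDUFB5. NDUFV3, a small flavoprotein-module subunit, had 31.3 in the acinar tumor and 42.5 in the solid tumor, against 24.2 and 25.9 in the mix and single cultures, and its tumor ratio was 0.737 (0.614 to 0.883). NDUFS1, the large iron-sulfur subunit that carries electrons from the NADH site, had 37.8 and 49.8 in the acinar and solid tumors and 125 and 135 in the mix and single cultures, a tumor ratio of 0.760 (0.643 to 0.897). NDUFB5, a membrane-arm subunit, had 34.4 in the acinar tumor, 43.4 in the solid tumor, 44.3 in the mix culture and 52.3 in the single culture, a tumor ratio of 0.794 (0.665 to 0.946).

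All 4 complex II genes had tumor ratios below 1, and every counting interval included 1. SDHA, the flavoprotein that oxidises succinate, had 108 scaled counts in the acinar tumor, 118 in the solid tumor, 181 in the mix culture and 189 in the single culture, with a tumor ratio of 0.912 (0.824 to 1.01). SDHB, the iron-sulfur subunit, had 59.2 and 59.4 in the acinar and solid tumors and 86.1 and 81.8 in the mix and single cultures, with a tumor ratio of 0.997 (0.866 to 1.15). The membrane anchors gave similar results. SDHC had 27.1, 29.5, 60.3 and 54.8 in the acinar tumor, solid tumor, mix culture and single culture, and its tumor ratio was 0.920 (0.748 to 1.13). SDHD had 31.8, 36.1, 33.3 and 39.1 in the same order, and its tumor ratio was 0.881 (0.730 to 1.06). No complex II gene separated the 2 tumors beyond counting error.

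Complex III was close to level between the tumors, with ratios from 0.899 to 1.04. UQCRC2, a large matrix-side core protein, was the lowest at 164 in the acinar tumor and 182 in the solid tumor, against 246 and 277 in the mix and single cultures, a tumor ratio of 0.899 (0.828 to 0.975). UQCRB, a small subunit near the ubiquinone site, had 162, 176, 136 and 141 in the acinar tumor, solid tumor, mix culture and single culture, a tumor ratio of 0.924 (0.851 to 1.004). UQCRFS1, the Rieske iron-sulfur protein that passes electrons towards cytochrome c, had 128, 135, 208 and 223 in that order, a tumor ratio of 0.948 (0.863 to 1.04). Among these, only the interval of UQCRC2 lay clear of 1. The highest were the small subunits UQCR11, UQCR10 and UQCRQ. UQCR11 had 213.5 in the acinar tumor, 206 in the solid tumor, 94.4 in the mix culture and 102 in the single culture, a tumor ratio of 1.04 (0.964 to 1.12). UQCR10 had 103, 100.3, 78.3 and 85.1 in the same order, a tumor ratio of 1.03 (0.924 to 1.14). UQCRQ, a subunit that binds ubiquinone, had 338, 331, 157 and 161, a tumor ratio of 1.02 (0.961 to 1.08).

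Complex IV was also nearly level between the tumors, at a median log2 ratio of 0.01. COX6C, a small membrane subunit, was the highest, with 231 scaled counts in the acinar tumor, 203 in the solid tumor, 107 in the mix culture and 99.3 in the single culture, a tumor ratio of 1.14 (1.06 to 1.23). NDUFA4 had 178, 166, 109 and 107 in the same order of libraries, a tumor ratio of 1.07 (0.988 to 1.16). COX6A1, the isoform of subunit VIa found outside muscle, had 224, 210.2, 95.9 and 104.6, a tumor ratio of 1.07 (0.992 to 1.15). Of these 3, COX6C alone had an interval clear of 1. At the low end, COX7C had 215 in the acinar tumor, 240.4 in the solid tumor, 139 in the mix culture and 137 in the single culture, a tumor ratio of 0.893 (0.832 to 0.959). COX5B, the zinc-binding subunit, had 189, 206, 99.2 and 107 in that order, a tumor ratio of 0.919 (0.852 to 0.993). COX5A, a matrix-side subunit, had 194, 202, 166 and 149, a tumor ratio of 0.960 (0.889 to 1.04).

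Complex V had the lowest median of the 5 complexes in this pair, -0.17 on the log2 scale, and the lowest values were those of ATP5B and the genes of the membrane ring. ATP5B, the beta subunit that holds the catalytic sites of the F1 head, had 533 scaled counts in the acinar tumor, 754 in the solid tumor, 1233 in the mix culture and 1299.8 in the single culture. Its tumor ratio of 0.707 (0.677 to 0.738) was the lowest of all core subunits. The other low genes were ATP5G1, ATP5G2 and ATP5G3, which encode the same mature c subunit of the rotating membrane ring behind different import sequences. ATP5G1 had 100.9 in the acinar tumor, 139 in the solid tumor, 163 in the mix culture and 146 in the single culture, a tumor ratio of 0.728 (0.659 to 0.805). ATP5G3 had 138, 186, 215 and 197 in that order, a tumor ratio of 0.742 (0.681 to 0.809). ATP5G2 had 368, 480.1, 274 and 269, a tumor ratio of 0.766 (0.727 to 0.807). All 3 c-ring genes were thus lower in the acinar tumor by more than counting error. Summed over the 3 genes, the c-ring stood at 607 in the acinar tumor and 805 in the solid tumor, against 652 and 613 in the mix and single cultures.

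Other complex V genes were closer to level. ATP5D, ATP5F1, ATP5I and ATP5O had tumor ratios between 0.867 and 0.888, with counting intervals below 1. ATP5A1, the alpha subunit that alternates with beta in the F1 head, had 241 scaled counts in the acinar tumor, 252 in the solid tumor, 449 in the mix culture and 443 in the single culture, a tumor ratio of 0.955 (0.892 to 1.02). The 4 peripheral stalk genes ATP5F1, ATP5H, ATP5J and ATP5O had a median log2 ratio of -0.03 and the membrane subunits ATP5I, ATP5J2 and ATP5L a median of 0.00. The highest ratios were those of ATP5J2, ATP5H and ATP5E. ATP5J2 had 143 in the acinar tumor, 120.1 in the solid tumor, 117 in the mix culture and 109.9 in the single culture, a tumor ratio of 1.19. ATP5E, the epsilon subunit of the central stalk, had 213, 193, 109 and 101.5 in that order, a tumor ratio of 1.10. Values of ATP5J2 and ATP5E were fractional, so no counting interval can be given, and the table also holds the read-through gene ATP5J2-PTCD1. ATP5H, subunit d of the peripheral stalk, had 165, 146, 125 and 116 in the same order, a tumor ratio of 1.13 (1.04 to 1.23). Within complex V the genes thus ran from 0.707 to 1.19, a wider spread than in complexes II, III and IV.

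**Figure D2:**
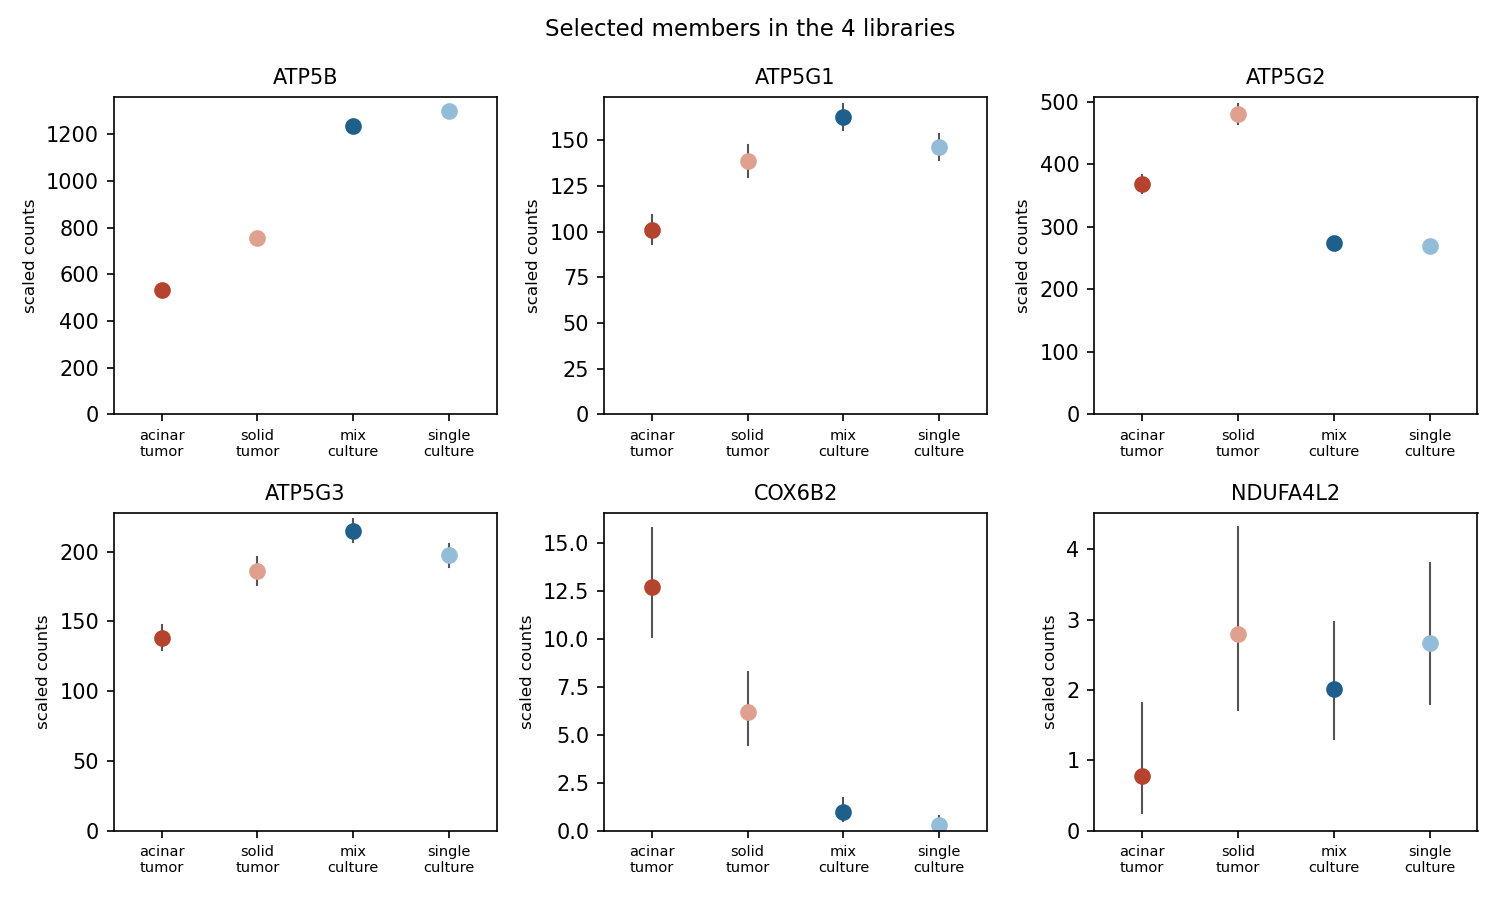
Scaled counts of ATP5B, ATP5G1, ATP5G2, ATP5G3, COX6B2 and NDUFA4L2 in the 4 libraries, 1 panel per gene with its own linear axis from 0; points are single libraries and bars are exact 95% Poisson intervals for counting error, left out where fragments were not whole. ATP5B and the 3 c-ring genes were lower in the acinar than in the solid tumor, and COX6B2 was above 6 scaled counts in both tumors and below 1 in both cultures.

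The restricted isoforms were mostly at or near 0. COX4I2, COX6A2, COX7B2 and COX8C, which are lung-, muscle- or testis-type isoforms of complex IV, were listed at 0 in all 4 libraries. A listed 0 need not mean absence in this table, since SLC25A6, an ADP/ATP carrier of most cells, is also listed at 0 throughout. COX7A1, the muscle isoform of subunit VIIa, had 1 fragment in the acinar tumor (0.155 scaled counts) and was listed at 0 elsewhere, and ATP5L2 stayed between 0.322 and 0.465. These 6 genes did not reach 1 scaled count in any library. COX6B2, the testis-type isoform of subunit VIb, was the exception, with 12.7 scaled counts in the acinar tumor, 6.15 in the solid tumor, 0.966 in the mix culture and 0.267 in the single culture. It rested on 82, 44, 12 and 3 fragments in that order, and its tumor ratio was 2.07 (1.42 to 3.05). NDUFA4L2, a HIF-induced paralogue of NDUFA4, was at 0.775 in the acinar tumor, 2.80 in the solid tumor, 2.01 in the mix culture and 2.67 in the single culture, from 5, 20, 25 and 30 fragments. Its tumor ratio was 0.277 (0.0813 to 0.761), and with a pseudocount of 5 it no longer passed 1.5-fold. ATP5S had 7.60, 10.8, 6.60 and 5.95 in the same order of libraries, and the tumor ratio of 0.706 (0.483 to 1.02) could not be separated from 1 at this depth. COX7A2L, which joins complexes III and IV into a supercomplex, had 149.8 in the acinar tumor, 168 in the solid tumor, 99.2 in the mix culture and 90.4 in the single culture, a tumor ratio of 0.890 (0.816 to 0.969). UQCRHL, an intronless near-copy of the complex III gene UQCRH, had 67.0, 75.8, 97.3 and 88.8, against 64.3, 66.8, 55.5 and 53.7 for UQCRH in the same order. The split of fragments between these near-identical copies is uncertain.

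The second comparison asks what growth with CAFs went with in the colonies, and here no member stood out. Over all genes measured in this pair, 3.31% were past 1.5-fold higher and 6.83% past 1.5-fold lower in the mix culture, or 1.84% and 2.61% of genes averaging 25 scaled counts or more. None of the 79 members measured passed 1.5-fold in either direction, and hence none passed 2-fold, against 0.682% of all genes past 2-fold higher and 1.74% lower. The 75 core subunits had a median log2 ratio of 0.00 and a range from -0.30 to 0.29; 38 were above 0 and 37 below, against 52% of all genes above 0. Of 69 core subunits with a counting interval, 45 intervals included a ratio of 1, 12 lay above it and 12 below. The medians of complexes I to V were 0.04, 0.00, -0.08, -0.00 and 0.03. Core subunits of both pairs were set side by side as well: across the 75 genes, acinar over solid and mix over single ratios correlated at Pearson r = 0.17 and Spearman rho = 0.10, against r = 0.15 and rho = 0.14 over 12903 genes. These are correlations across genes within single libraries, and genes are not independent replicates.

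The largest culture ratios of complex I were those of NDUFS6, at 1.22 (1.11 to 1.36), and NDUFA12, at 1.19 (1.07 to 1.33), which also led in the tumors. NDUFB2, an accessory membrane subunit with fractional values and a listed antisense partner, had 146 and 133 in the acinar and solid tumors and 94.3 and 80.1 in the mix and single cultures, a culture ratio of 1.18. NDUFB5 was at the low end in this pair too, with a culture ratio of 0.846 (0.752 to 0.952). The lowest was NDUFA7, an accessory subunit of the peripheral arm, at 75.8 in the acinar tumor, 79.6 in the solid tumor, 38.5 in the mix culture and 47.5 in the single culture, a culture ratio of 0.809 (0.714 to 0.917). In complex II, SDHD had a culture ratio of 0.852 (0.744 to 0.977), while the intervals of SDHA at 0.957 (0.901 to 1.01), SDHB at 1.05 (0.963 to 1.15) and SDHC at 1.10 (0.987 to 1.22) included 1.

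The large core proteins of complex III went opposite ways in the cultures. UQCRC1 had 184 and 186 scaled counts in the acinar and solid tumors and 194 and 169 in the mix and single cultures, a culture ratio of 1.15 (1.08 to 1.22). UQCRC2 had a culture ratio of 0.887 (0.843 to 0.932). The ratios of the small subunits were 1.03 (0.925 to 1.15) for UQCRH, 0.974 (0.914 to 1.04) for UQCRQ, 0.920 (0.841 to 1.01) for UQCR10 and 0.923 (0.850 to 1.002) for UQCR11, all with intervals that reach 1. In complex IV, COX5A was the highest at 1.12 (1.05 to 1.19), followed by COX6C at 1.07 (0.991 to 1.16) and COX7C at 1.02 (0.951 to 1.09). The lowest were COX7B at 0.917 (0.861 to 0.976), from 208 and 213 in the acinar and solid tumors and 159.7 and 174 in the mix and single cultures, COX6A1 at 0.917 (0.845 to 0.994) and COX5B at 0.924 (0.853 to 1.001). In complex V, ATP5D, the delta subunit of the central stalk, led at 1.15 (1.04 to 1.27), with 90.9 and 104 in the acinar and solid tumors and 76.5 and 66.5 in the mix and single cultures. ATP5G1 followed at 1.11 (1.04 to 1.19) and ATP5G3 at 1.09 (1.03 to 1.15), so these c-ring genes were above 1 in the cultures and below 1 in the tumors. At the low end stood ATP5B at 0.949. ATP5L, membrane subunit g, had 177 and 176.5 in the acinar and solid tumors and 124.6 and 130.2 in the mix and single cultures, a culture ratio of 0.957 (0.891 to 1.03). ATP5C1, the gamma subunit of the central shaft, had 250.1 and 248.5 in the acinar and solid tumors and 219.6 and 227 in the mix and single cultures, a culture ratio of 0.966 (0.915 to 1.02). COX6B2 fell below the limit for measurement in this pair, and its ratio of 3.62 had an interval from 0.978 to 20.0. The intervals of NDUFA4L2 at 0.755 (0.426 to 1.33) and ATP5S at 1.11 (0.793 to 1.56) included 1, and COX7A2L and UQCRHL were each at 1.10 (1.01 to 1.19).

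**Figure D3:**
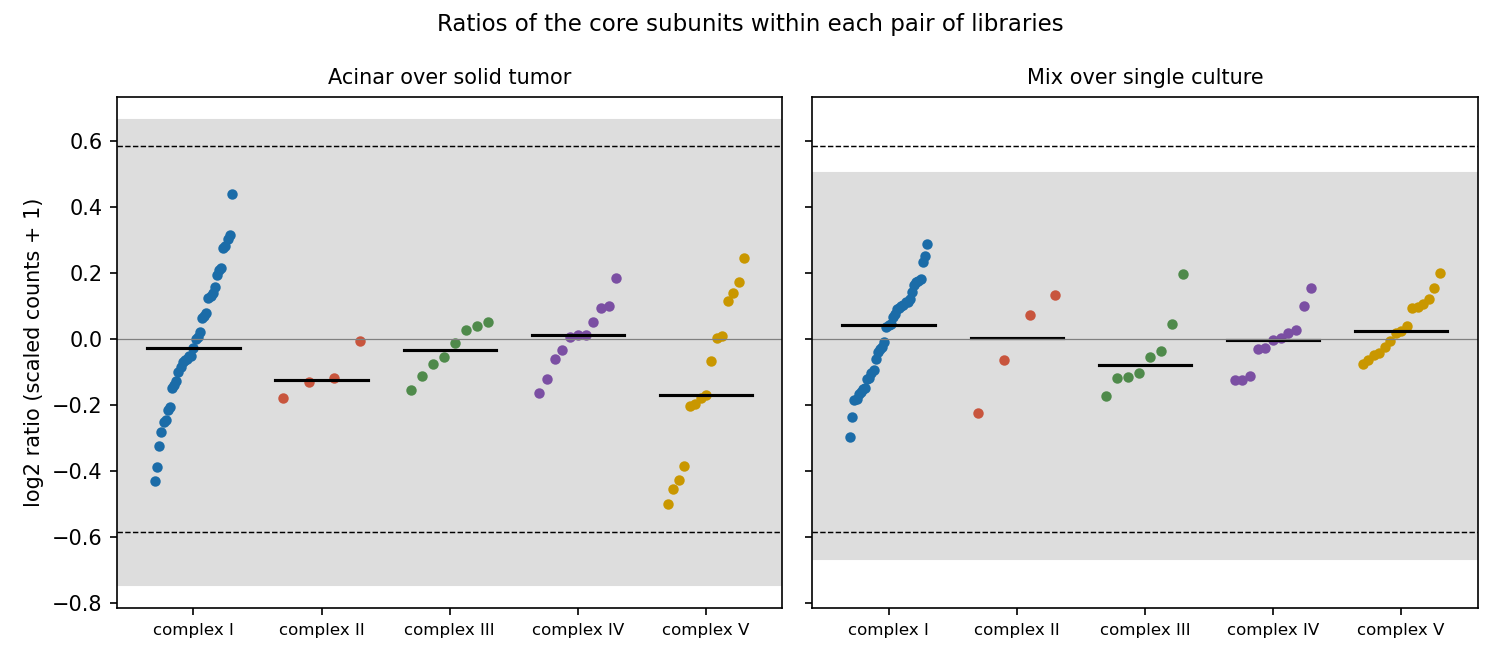
Log2 ratios of the core subunits by complex, acinar over solid tumor and mix over single culture, 1 point per gene in rising order; the y axis is log2((value + 1)/(value + 1)) in scaled counts, black bars are medians, dashed lines are 1.5-fold and the grey band holds the middle 90% of all genes measured. Core subunits lay between -0.50 and 0.44 in the tumor pair and between -0.30 and 0.29 in the culture pair, inside the 1.5-fold limits.

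The largest differences of these genes were between the tumors and the cultures. Both tumor values lay above both culture values for 53 of the 80 members measured and below both for 20, against 39.8% and 38.7% of all genes. Among the 75 core subunits the counts were 50 above and 19 below. With 1 added to each value, the lower tumor was at least 1.5-fold the higher culture in 17 core subunits. On the same scale, the higher tumor was at least 1.5-fold under the lower culture in 6. The shares over all genes were 18.1% and 16.7%. The difference between the mean log2 of the tumors and the mean log2 of the cultures had a median of 0.31 over the core subunits, with a range from -1.56 to 1.83, against 0.02 over all genes. Acinar and solid tumors are different conditions, as are mix and single cultures, so the libraries of a setting are not replicates.

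**Figure D4:**
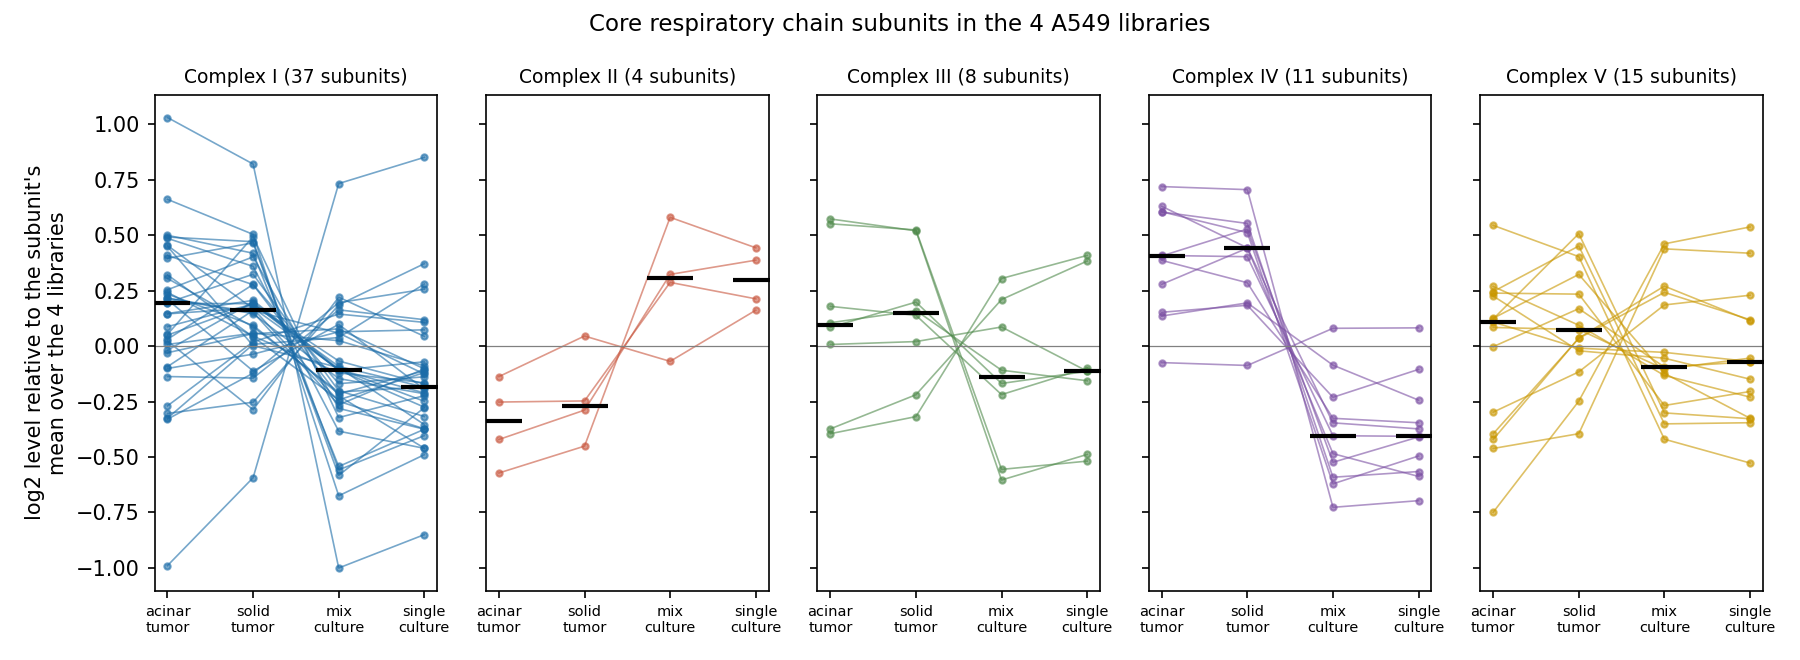
Core subunits in the 4 libraries, 1 panel per complex; the y axis is the log2 scaled count relative to the gene's mean over the libraries, each line joins the values of 1 gene, and black bars are medians. Most complex IV lines drop between the tumors and the cultures, complex II lines do not, and within each pair lines are close to level.

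Complex IV showed the tumor excess most evenly, with a median difference of 0.81 and 10 of 11 subunits above both cultures, 8 of them by at least 1.5-fold. COX4I1, the large structural subunit, had 517 scaled counts in the acinar tumor and 515 in the solid tumor, against 295 in the mix culture and 294 in the single culture. COX6B1, which links the monomers of the dimer on the outer face, had 730.4 and 705 in the acinar and solid tumors and 319 and 325 in the mix and single cultures. COX7A2, the isoform of subunit VIIa found in most tissues, had 251 and 249 in the acinar and solid tumors and 92.3 and 94.2 in the mix and single cultures, a difference of 1.41 on the log2 scale. COX8A alone went against the rest of the complex, with 257 and 255 in the acinar and solid tumors and 286 and 287 in the mix and single cultures. COX6B2, not a core subunit, had a difference of 2.65, against 3.84 when the pseudocount was 0.1 and 1.33 when it was 5.

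Complex I had a median difference of 0.32, with 25 of 37 subunits above both cultures and 8 below, and its parts differed. The split by role that follows was chosen after the values were seen. The 30 accessory subunits had a median difference of 0.35, with 22 above both cultures and 4 below. NDUFB7, an accessory membrane-arm subunit on the intermembrane side, had the largest excess of any core subunit, with 244 scaled counts in the acinar tumor and 211 in the solid tumor, against 59.7 in the mix culture and 66.3 in the single culture. The lower tumor was thus 3.18 times the higher culture. NDUFA2, an accessory subunit with a thioredoxin-like fold, had 149 and 134 in the acinar and solid tumors and 59.0 and 67.1 in the mix and single cultures. The 7 catalytic subunits, which carry the flavin and iron-sulfur clusters or the ubiquinone site, had a median of -0.25, with 3 above and 4 below. NDUFS1 had the lowest difference of all core subunits, -1.56, on the values given above for the tumor pair. NDUFV1, the NADH-binding flavoprotein, had 127 and 147 in the acinar and solid tumors and 183 and 191 in the mix and single cultures. NDUFV2, its small partner, went the other way, with 60.2 and 59.3 in the acinar and solid tumors and 29.1 and 32.4 in the mix and single cultures.

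Complex II was the one complex with no gene above both cultures. Its median difference was -0.60, with 3 of 4 genes below both cultures. SDHC had the lowest difference, -0.998, and the higher tumor was 1.86-fold under the lower culture. SDHA was 1.53-fold and SDHB 1.38-fold under in the same measure, while the values of SDHD overlapped between tumors and cultures. Complex III had a median of 0.27 that again joined unlike parts. UQCRC2 and UQCRFS1 lay below both cultures, with differences of -0.59 and -0.71, and the values of UQCRC1 overlapped. All 5 small subunits lay above both cultures, among them UQCRQ at 1.07 and UQCR11 at 1.08. Complex V had a median of 0.16, with 10 subunits above and 5 below, and its median was 0.36 when genes with fractional values were left out. ATP5B and ATP5A1, the large subunits of the F1 head, were the lowest at -0.996 and -0.854, and ATP5E was the highest at 0.94.

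Large subunits thus tended to be lower, and small ones higher, in the tumors than in the cultures, and the same held, less steeply, for other genes. Coding length, taken from the GENCODE annotation after the data were seen, had a median of 423 bases in the core subunits and 1410 bases over all genes with a value. Across the 75 core subunits the tumor-minus-culture difference correlated with log2 coding length at r = -0.65 and rho = -0.59, and across 12869 genes at r = -0.20 and rho = -0.23. In genes under 300 coding bases the median difference was 0.68 for 18 core subunits and 0.51 for 231 other genes. Between 300 and 600 bases it was 0.36 for 38 core subunits and 0.34 for 1285 other genes, and between 600 and 1200 bases 0.07 for 11 core subunits and 0.08 for 3622 other genes. From 1200 bases on it was -0.65 for 8 core subunits and -0.16 for 7656 other genes. Between 300 and 1200 bases the core subunits were near other genes of their length. Under 300 bases they were somewhat higher, and from 1200 bases on they were lower. The part of length in the tumor and culture differences was not tested, and the microdissected and sorted cells also differ in collection, which cannot be told apart from where the cells grew. In the tumor pair the correlation with coding length was r = -0.34 over the core subunits and r = -0.03 over 12418 genes. Of the genes lowest in the acinar tumor, ATP5G1, ATP5G2 and ATP5G3 have 408, 423 and 426 coding bases and ATP5B has 1587. The part of length in the tumor pair was not tested either.

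**Figure D5:**
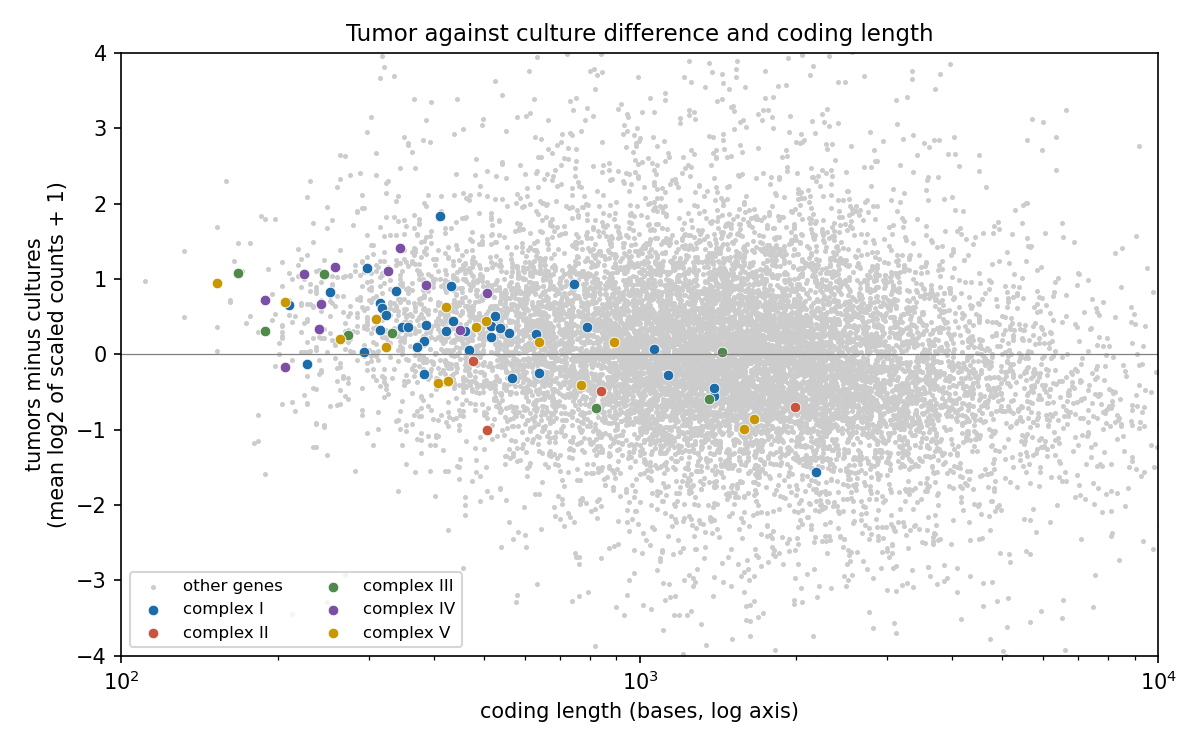
Tumor-minus-culture difference (mean log2 of the tumors minus mean log2 of the cultures, y axis) against coding length in bases (x axis, log scale), with core subunits coloured by complex over all genes with a coding length in grey; 221 of 12869 genes, none of them core subunits, lie outside the axes. Subunits under 300 bases lay mostly above 0 and those of 1200 bases or more mostly below it.

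Promoters were searched for all members, because respiratory chain genes are known targets of GABP, a nuclear respiratory factor of the ETS family. Sequences are the 250 bases before the annotated start in RefSeq, build GRCh38.p14 rather than the hg19 of the counts, on the gene's strand, and capitals mark CCGGAAG or its reverse complement CTTCCGG, the ETS core searched. The windows of 5 core subunits were picked, with values known, to show the match in genes of either direction: NDUFB7, UQCR11 and COX6B1 were higher in both tumors, and COX8A and SDHB lower in both. They do not stand for the core subunits in general, most of which hold no match. COX6B2, the testis-type isoform, is shown as a window without a match. They lie at chr19:14572067-14572316 (minus strand) for NDUFB7, chr19:1605463-1605712 (minus) for UQCR11, chr19:35648073-35648322 (plus) for COX6B1, chr11:63974370-63974619 (plus) for COX8A, chr1:17054033-17054282 (minus) for SDHB and chr19:55354720-55354969 (minus) for COX6B2.
NDUFB7: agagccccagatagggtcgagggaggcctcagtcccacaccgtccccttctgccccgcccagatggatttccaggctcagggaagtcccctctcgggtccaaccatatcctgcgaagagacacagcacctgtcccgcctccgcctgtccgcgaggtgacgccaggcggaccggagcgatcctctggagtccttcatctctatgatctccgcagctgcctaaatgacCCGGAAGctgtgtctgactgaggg
UQCR11: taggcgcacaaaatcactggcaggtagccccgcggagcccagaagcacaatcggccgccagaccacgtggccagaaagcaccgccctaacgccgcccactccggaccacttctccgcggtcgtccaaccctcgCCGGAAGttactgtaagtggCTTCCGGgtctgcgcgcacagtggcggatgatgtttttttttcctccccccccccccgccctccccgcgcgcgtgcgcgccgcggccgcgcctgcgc
COX6B1: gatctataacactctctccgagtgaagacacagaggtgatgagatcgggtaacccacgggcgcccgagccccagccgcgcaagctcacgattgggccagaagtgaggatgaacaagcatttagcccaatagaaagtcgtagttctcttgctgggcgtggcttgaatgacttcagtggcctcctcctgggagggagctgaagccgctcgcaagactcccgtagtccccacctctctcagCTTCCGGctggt
COX8A: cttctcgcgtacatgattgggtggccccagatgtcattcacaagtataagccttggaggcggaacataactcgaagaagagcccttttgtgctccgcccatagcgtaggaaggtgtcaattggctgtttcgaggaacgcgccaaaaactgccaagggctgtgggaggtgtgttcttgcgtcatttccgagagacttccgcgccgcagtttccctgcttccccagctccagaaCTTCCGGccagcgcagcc
SDHB: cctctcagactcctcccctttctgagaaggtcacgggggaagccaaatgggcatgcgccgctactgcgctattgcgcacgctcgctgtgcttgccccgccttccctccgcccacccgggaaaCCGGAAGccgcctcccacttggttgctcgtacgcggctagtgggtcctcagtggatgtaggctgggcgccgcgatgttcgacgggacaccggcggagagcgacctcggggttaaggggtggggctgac
COX6B2: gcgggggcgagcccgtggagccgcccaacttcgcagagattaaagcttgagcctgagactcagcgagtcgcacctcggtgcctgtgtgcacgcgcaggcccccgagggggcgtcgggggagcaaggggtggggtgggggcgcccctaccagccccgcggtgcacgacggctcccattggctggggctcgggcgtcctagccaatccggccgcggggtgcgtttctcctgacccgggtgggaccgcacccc

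A promoter was found for 63 of the 75 core subunits, and both strands were searched. CCGGAAG was present in 16 of the 63, or 25.4%, against 8.82% of all 27305 promoters and 14.99% of the 10668 promoters of genes measured in these libraries. The matches in NDUFB7, COX8A and COX6B1 began 24, 18 and 12 bases before the start, and UQCR11 had 2 matches. The HIF core ACGTG was present in 23.8% of the 63, against 18.7% of all promoters and 23.2% of those of measured genes. Subunits with CCGGAAG lay on both sides between tumors and cultures. Their median difference was 0.51, with 12 of 16 above both cultures and 3 below, against 0.31 for the 47 without it, with 31 above and 11 below. A match is a run of letters in these windows, not a measured binding site.

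Genes around the chain were read from lists, with the assembly factors first. Of 47 measured assembly factors, COX20 was past 1.5-fold higher in the acinar tumor, none was past 1.5-fold lower, and none passed in the cultures. Over all genes, 6.34% were past 1.5-fold higher and 8.07% lower in the acinar tumor, and 3.31% and 6.83% in the mix culture. COX20, a chaperone of COX2 maturation, had 14.8 scaled counts in the acinar tumor, 8.33 in the solid tumor, 28.4 in the mix culture and 37.0 in the single culture. The assembly factors had a median log2 ratio of 0.11 between the tumors and 0.05 between the cultures. In the tumors, 20 of the 47 lay above and 18 below both cultures, near the 39.8% and 38.7% of all genes. Their median tumor-minus-culture difference was 0.02, as over all genes, against 0.31 for the core subunits. None of the 13 measured genes of a list of cytochrome c, the complex III heme subunit and ADP/ATP carriers, which also holds COX7A2L, passed 1.5-fold in either pair, and SLC25A6 was listed at 0. CYC1, the heme subunit of complex III, had 171 in the acinar tumor, 194 in the solid tumor, 312 in the mix culture and 273 in the single culture. CYCS, cytochrome c, had 128, 140.3, 186 and 173 in the same order.

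Among 18 measured regulators of mitochondrial biogenesis, PPARGC1A and PPARGC1B were past 1.5-fold lower in the acinar tumor and PPARGC1A also in the mix culture. These counts were near the shares over all genes, 8.07% and 6.83%. None was past 1.5-fold higher, against 6.34% and 3.31% of all genes. PPARGC1A, the coactivator PGC-1alpha, had 15.3 scaled counts in the acinar tumor, 25.9 in the solid tumor, 17.6 in the mix culture and 31.6 in the single culture. Its ratio was 0.593 (0.460 to 0.761) in the tumors and 0.557 (0.469 to 0.661) in the cultures, so the gene was lower in the acinar tumor and in the mix culture alike. PPARGC1B had 0.310 and 1.96 in the acinar and solid tumors, from few fragments, and 10.4 and 10.2 in the mix and single cultures. NRF1 had 36.1 in the acinar tumor, 28.2 in the solid tumor, 20.6 in the mix culture and 18.5 in the single culture, and its tumor ratio was 1.28 (1.05 to 1.55). TFAM, which packages and transcribes mitochondrial DNA, had 42.0, 34.0, 93.3 and 77.9 in the same order, with ratios of 1.24 (1.04 to 1.48) in the tumors and 1.20 (1.10 to 1.31) in the cultures. The regulators as a list lay mostly lower in the tumors than in the cultures, with 4 of 18 above and 11 below both cultures, against 39.8% and 38.7% of all genes.

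Citric acid cycle and pyruvate dehydrogenase genes resembled complex II rather than complex IV between the settings, with 4 of 25 above both cultures, 19 below and a median difference of -0.50, against 39.8%, 38.7% and 0.02 for all genes. Genes of this list have 1014 to 3534 coding bases, against 189 to 507 in complex IV, and the part of length was not tested. CS, citrate synthase, had 177 scaled counts in the acinar tumor, 170.3 in the solid tumor, 208 in the mix culture and 197 in the single culture. Of the 25 genes, PDK1 and PDK4 were past 1.5-fold lower in the acinar tumor and PDK1 in the mix culture. Over all genes the shares were 8.07% and 6.83%, which these counts did not exceed. No gene of the list was past 1.5-fold higher in either pair, against 6.34% and 3.31% of all genes. PDK1, a HIF-induced kinase that shuts off pyruvate dehydrogenase, had 15.3 in the acinar tumor, 30.9 in the solid tumor, 23.9 in the mix culture and 36.6 in the single culture. PDK4, a kinase with the same substrate, had 89.9, 164, 248 and 282 in that order. The 15 hypoxia and glycolysis genes, which share PDK1 with the list above and HIGD1A with the carriers, held 9 past 1.5-fold lower in the acinar tumor and 3 in the mix culture, against 8.07% and 6.83% of all genes, and none higher. Their medians were -0.73 in the tumors and -0.44 in the cultures. CA9, a HIF-induced carbonic anhydrase, had 17.8 in the acinar tumor, 127 in the solid tumor, 215 in the mix culture and 295 in the single culture. HK2, a hexokinase, had 8.53, 25.6, 5.88 and 30.9 in that order. Besides PDK1, CA9 and HK2, the genes past 1.5-fold lower in the acinar tumor were BNIP3, MXI1, PGK1, ALDOC, EGLN3 and ADM, with ratios from 0.272 for ADM to 0.637 for PGK1. In the mix culture they were HK2 at 0.190, ALDOC at 0.481 and PDK1 at 0.653. LDHA, lactate dehydrogenase A, had 1490 and 1797 in the acinar and solid tumors and 2901 and 2678 in the mix and single cultures. The respiratory chain member past 1.5-fold lower in the acinar tumor was NDUFA4L2, on 5 fragments against 20 in the solid tumor. With a pseudocount or a filter of 5 it was no longer counted. No core subunit passed 1.5-fold in either pair.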

How the data were processed

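The authors deposited a table of signal values for 26255 gene symbols, 1 column per library, which the file header calls raw signal. Per the submitters' processing notes, TopHat2 2.0.13, Bowtie2 2.2.3, SAMtools 1.0 and Cuffdiff 2.2.1 were used with the build hg19; the sources used here give neither the role of each tool nor the annotation, filters or strand setting. A library-wide step explained 90.0% to 91.1% of the nonzero deposited values as integer multiples (tolerance 0.05 fragments) (1.39 in the acinar tumor, 1.25 in the solid tumor, 0.720 in the mix culture and 0.795 in the single culture). They were therefore treated as fragment counts divided by a size factor, without a count model. Another normalised unit had been assumed in planning. All values were divided by 8.94, which puts them on about the scale of counts per 1000000; they were not divided by gene length. Overlapping genes and near-identical copies are uncertain.

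Ratios were log2((value + 1)/(value + 1)) over genes at 1 scaled count or more in at least 1 library of the comparison, which understates differences of low genes; printed folds are plain ratios. Counting intervals are exact conditional Clopper-Pearson intervals at 95% on whole fragments. They cover counting error only, since without molecular identifiers, fragments need not be independent molecules. The 3 comparisons were acinar over solid tumor, mix over single culture, and tumors over cultures. The ratio scripts were tested on simulated data with known folds. Alternatives were other pseudocounts, filters and scalings, genes with whole fragments only, and core subunits only.

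The members and lists were chosen with earlier results of these data known. Every member could be named; per complex and pair the 3 highest and 3 lowest ratios are given with 4 values, and from the other lists genes past 1.5-fold (up to 6 a list, of which examples are printed) and a fixed set of key genes. A gene that this rule names is not reported here. Promoters came from RefSeq (69 of 86 members matched, after older symbols were paired with current ones), and coding lengths from the longest principal coding sequence in GENCODE, for names and lengths only. Analyses used Python 3.11.15, NumPy 2.4.6, pandas 2.3.3, SciPy 1.17.1 and matplotlib 3.10.9.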

Additional observations from a re-analysis of the deposited data

How the results depend on the processing

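No paired analysis was possible because each group is 1 library and the labels carry no replicate numbers; for the same reason no replicate could be left out. Every alternative kept the direction of every value at least 0.1 from 0 on the log2 scale. In the tumor pair the count of members past 1.5-fold higher was 0 in place of 1 with core subunits only, and the count past 1.5-fold lower was 0 in place of 1 when the pseudocount or the filter was 5 or with core subunits only, since the genes concerned, COX6B2 and NDUFA4L2, are low-count isoforms. In the culture pair the count past 1.5-fold higher was 1 in place of 0 without a filter on low values, the gene being COX6B2. The other 76 alternative values of the main counts and medians stayed within 1.5 times or 0.1 on the log2 scale. The median over the members ranged from -0.07 to -0.03 in the tumor pair, from -0.00 to 0.02 in the culture pair and from 0.25 to 0.34 between tumors and cultures. Of the values for complexes and single genes, 1720 did not move and 9 moved further: complex V between tumors and cultures at 0.36 with whole fragments only, against 0.16, and values of LDHA, HK2, CA9, ATP5S, COX6B2 and NDUFA4L2, the one of LDHA only past its narrow counting error, at 0.09 in the culture pair under upper-quartile scaling, against 0.12. No scaling shifted the median of all genes by more than 0.06. Members with ratios near 1, among them COX4I1 and COX8A within the pairs and UQCRC1 between tumors and cultures, changed sign with the scaling. Depth limited the isoforms under 10 scaled counts, and counting intervals say nothing of variation between tumors or cultures.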
